A study of Danio rerio with 17 samples.

Results

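Among 6 pools of lipid-injected zebrafish embryos, the summed level of the 4 inducible hsp70 genes differed 5.49-fold between the 3 pools at the top and the 3 at the bottom, and this section asks which other genes differed with it. The study asked how excess glucose or excess fat alters gene expression in the embryo. Its 17 libraries were each made from 10 whole embryos of the AB line frozen at 72 hours post fertilization (hpf). The lipid pools, titled FFA, received BODIPY-labelled fluorescent lipid in canola oil (1 mg/ml) in the yolk sac at 24 hpf. Glucose pools were kept in 3% glucose from the same age, and control pools carry neither label. The labels do not say whether control embryos were injected or whether pools came from separate clutches, so p-values cover the spread between these libraries alone.

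Members were chosen by a measured value. For each FFA library the CPM (gene counts scaled to a library total of 1 M) of hsp70.1, hsp70.2, hsp70.3 and hsp70l were added, and the 3 highest libraries formed the high side and the 3 lowest the low side. FFA 1, FFA 4 and FFA 6 fell on the high side, and FFA 2, FFA 3 and FFA 5 on the low side. These 6 libraries are part of the 17 of the series, beside 6 glucose and 5 control libraries. The 4 hsp70 genes were left out of every test.

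HSP70 proteins bind unfolded stretches of other proteins and release them in cycles driven by ATP. J-domain proteins bring clients and start ATP hydrolysis, nucleotide exchange factors end the cycle, and HSP90 takes over some clients for final maturation. Cytosolic proteotoxic stress frees the transcription factor HSF1, which switches on the inducible hsp70 genes together with several of these partners.

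The summed hsp70 level was 310.0 CPM in FFA 1, 144.8 CPM in FFA 4 and 312.9 CPM in FFA 6, against 42.3 CPM in FFA 2, 47.7 CPM in FFA 3 and 49.8 CPM in FFA 5. It was 6.66 to 13.08 CPM in glucose pools and 4.03 to 6.65 CPM in control pools. The means of the high side and of the low side were therefore 48.7 and 8.87 times that of the controls, and even the low side lay above every glucose pool. The members just inside and just outside the split were FFA 4 at 144.8 CPM and FFA 5 at 49.8 CPM, so FFA 4 lay between the others. Each of the 4 genes separated the sides: hsp70.3, for instance, was 197, 74.2 and 180 CPM in FFA 1, FFA 4 and FFA 6, against 25.8, 32.2 and 28.2 CPM in FFA 2, FFA 3 and FFA 5. These values set the split and are a description alone. hsp70.1, hsp70.2 and hsp70.3 neighbour each other in RefSeq and are close copies, so their counts as single genes are uncertain.

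**Figure D1:**
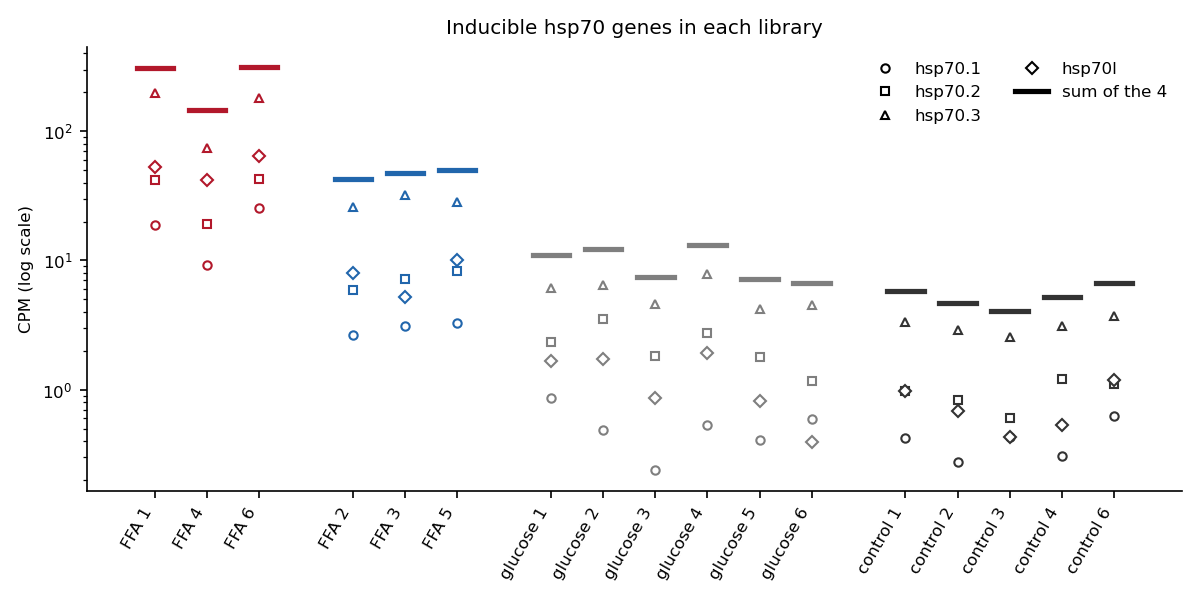
CPM (log axis) of hsp70.1, hsp70.2, hsp70.3 and hsp70l (open symbols) and their sum (bars) in each library. FFA 1 and FFA 6 lie near 310 CPM, FFA 4 at 144.8 CPM, the low FFA pools between 42.3 and 49.8 CPM, and glucose and control pools at 13.08 CPM or less.

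Counts assigned to genes were 11.34 to 13.79 M on the high side and 13.15 to 15.41 M on the low side (difference −1.16 M, two-sided exact permutation test, p = 0.5, where the smallest possible p is 0.1). The share of counts outside genes was 31.1 to 35.8% on the high side and 32.2 to 35.3% on the low side, with FFA 4 the highest of the 6. The treatment tag in the labels names another group than the title for 11 of the 17 libraries. On the high side 2 of 3 libraries carry the glucose tag, and on the low side 3 of 3. The titles were used. The hsp70 level separates all 6 libraries titled FFA from the 11 others, but this does not show whether title or tag names the treatment.

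Set against each other, the 3 high and 3 low pools gave no gene past an adjusted p of 0.05 among 13470 tested with edgeR's quasi-likelihood test (281 genes at an unadjusted p under 0.05, or 2.09%, lowest adjusted p 0.993). limma-voom also called 0. DESeq2 called 2, hsp90aa1.2 (adjusted p = 0.00896) and LOC557301 (adjusted p = 0.00189). The count depended on FFA 4, the pool with the intermediate hsp70 level. Without FFA 4, edgeR called 374 genes (2.77% of 13525), 31 higher and 343 lower in FFA 1 and FFA 6 than in the low pools. Leaving out any other FFA library gave 0. The common coefficient of variation was 0.118 with FFA 4 and 0.0870 without it.

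Some genes of the chaperone system, of the cytosol and of the endoplasmic reticulum (ER), were among those whose levels lay apart between the sides. In 551 of the 13470 genes (4.09%) all 3 high pools lay above all 3 low pools, and in 345 (2.56%) all lay below. Of 40 tested HSP70 partners and other HSP70 genes, 7 were of the first kind and 0 of the second, and of 21 HSP90 genes and co-chaperones 4 and 0. The 7 include the ER genes hspa5 and dnajb11 and the 4 the ER gene hsp90b1, and hspa5 and hsp90b1 also count in the ER list. The median log2 difference was 0.08 over the 40 and 0.06 over the 21, against 0.0021 over all genes. Most members of these lists thus differed little, and a few differed more. Such shares were not particular to chaperones. All high pools also lay above all low pools in 5 of 21 exocrine pancreas genes and 6 of 27 macrophage and neutrophil markers. The same held for 7 of 36 oxidative stress genes, and in each of these 3 lists 0 lay below. In whole-embryo RNA a different number of expressing cells and a different level per cell cannot be told apart.

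hsp90aa1.2, one of a pair of neighbouring genes for the inducible HSP90 alpha, was 277, 185 and 279 CPM in FFA 1, FFA 4 and FFA 6, against 152, 148 and 139 CPM in FFA 2, FFA 3 and FFA 5. Its log2 difference was 0.77 ± 0.17 (SE), and controls had 64.4 to 120 CPM. The 2 pools with the most hsp70 also had the most hsp90aa1.2, FFA 4 came next, and all 6 lay above the controls. Its neighbour hsp90aa1.1 had 107, 95.6 and 110 CPM in the high pools, against 128, 113 and 94.6 CPM in the low pools. The sides overlapped there, with a log2 difference of −0.09 ± 0.13, and the difference between the neighbours was not tested. The pair shares sequence, and the sources used here do not say how reads matching both were counted.

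Among the nucleotide exchange factors, hspbp1, a co-chaperone that opens the nucleotide-binding part of HSP70, was 27.6, 24.3 and 26.02 CPM in the high pools FFA 1, FFA 4 and FFA 6, against 19.1, 16.7 and 17.0 CPM in the low pools FFA 2, FFA 3 and FFA 5. Its log2 difference was 0.57 ± 0.11, and controls had 11.8 to 14.3 CPM. FFA 4 kept close to the other high pools, and the 3 groups did not overlap.

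bag3, which links HSP70 to small heat shock proteins and to autophagy, was 44.6, 39.3 and 58.9 CPM in the high pools, against 31.7, 30.4 and 28.7 CPM in the low pools (log2 difference 0.67 ± 0.16). Controls had 25.9 to 29.4 CPM, so FFA 5 lay within the control range and every high pool above it. hspa4a, an HSP110-type exchange factor, was 179, 151 and 174 CPM in the high pools, against 142, 122 and 133 CPM in the low pools (0.36 ± 0.10), with 122 to 141 CPM in controls. For hspa4a the low pools and the controls covered about the same range, and glucose pools, at 150 to 187 CPM, covered the values of the high pools.

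Among J-domain proteins dnajb1b, an HSP40 that partners inducible HSP70, was 40.5, 29.7 and 45.4 CPM in the high pools, against 26.1, 21.5 and 25.8 CPM in the low pools (0.67 ± 0.17), with 17.2 to 20.8 CPM in controls. Every high pool lay above every low pool and every low pool above the controls. Glucose pools had 24.0 to 26.5 CPM of dnajb1b, which overlaps the low pools, though their hsp70 sum was far lower. Its paralog dnajb1a had 21.2, 21.2 and 20.02 CPM in the high pools, against 19.9, 19.6 and 21.2 CPM in the low pools (0.05 ± 0.09). The dnajb1a sides overlapped, and both lay above its control range of 16.3 to 18.0 CPM. Glucose pools had 18.5 to 21.1 CPM of dnajb1a, which overlaps both sides.

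hspb8, a small heat shock protein that works with BAG3, was 79.6, 68.6 and 86.4 CPM in the high pools, against 55.4, 61.8 and 59.6 CPM in the low pools (0.43 ± 0.11). Controls had 53.6 to 65.1 CPM, a range that held all 3 low pools, and glucose pools had 64.7 to 81.8 CPM, which overlaps the high pools. hspb6 had the 6 pools in the same order as the hsp70 sum (37.3, 33.9 and 33.3 CPM in FFA 6, FFA 1 and FFA 4, against 32.4, 31.6 and 27.19 CPM in FFA 5, FFA 3 and FFA 2). Its log2 difference was 0.21 ± 0.10, and 32 genes (0.238%) shared that order, against 20 (0.148%) with the opposite one. Controls had 28.7 to 43.5 CPM of hspb6 and glucose pools 21.4 to 38.8 CPM, and both ranges overlap both sides. The other small heat shock genes named did not separate the sides: the log2 difference was 0.17 ± 0.20 for hspb1 and −0.18 ± 0.21 for hspb9. Of 10 tested small heat shock genes, 2 were higher in all high pools (4.09% of all genes) and 0 lower (2.56%). Only 4 of the 10 had a positive log2 difference, against 6826 of all 13470 genes, and the list median was −0.034.

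**Figure D2:**
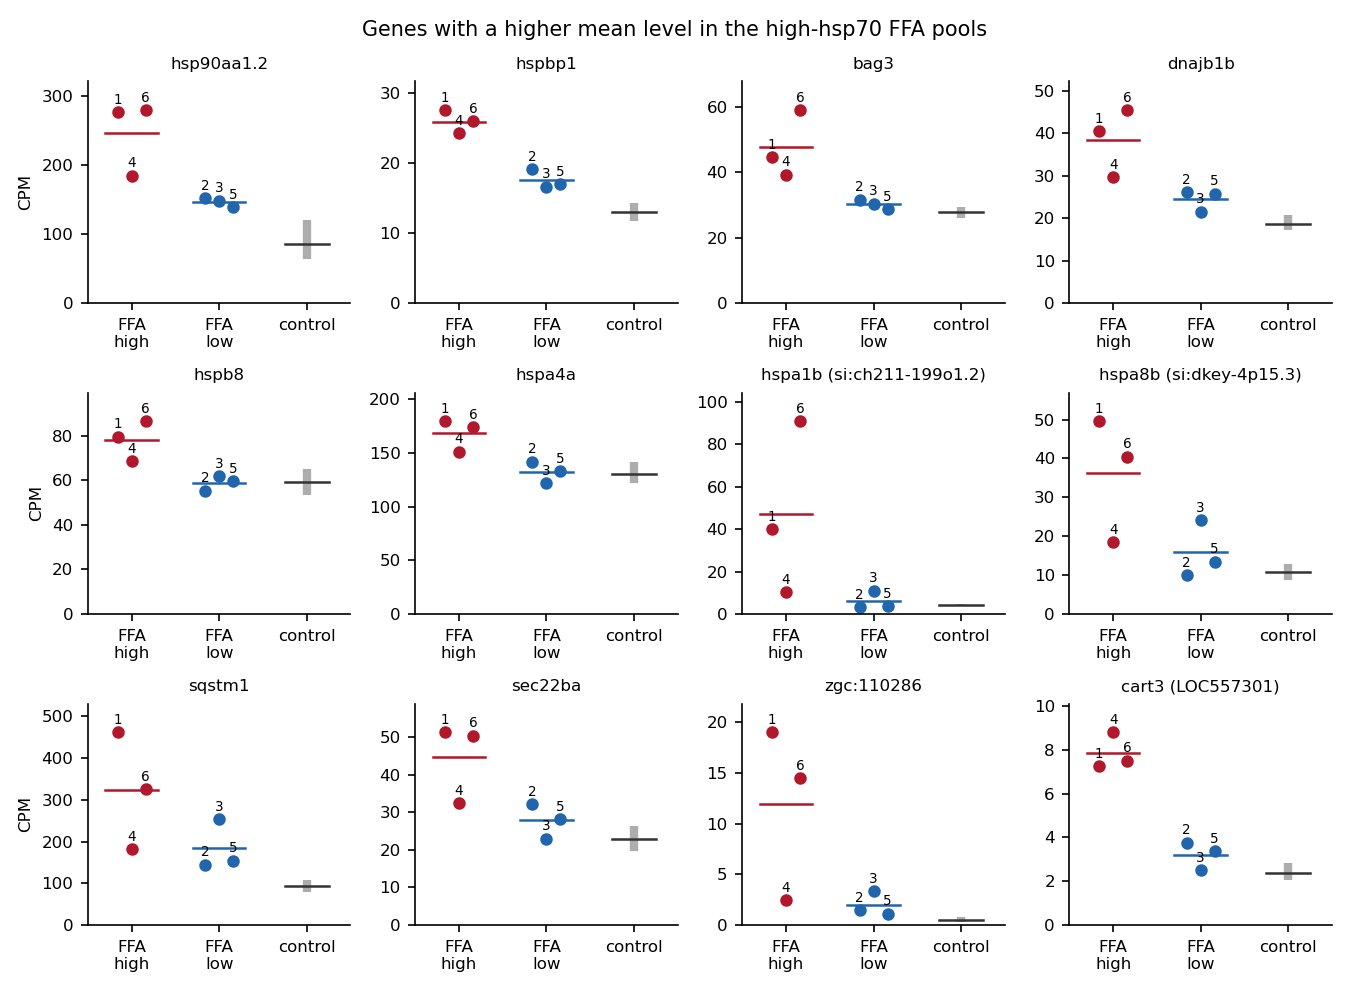
CPM of 12 genes in the high pools (red, numbered by library), the low pools (blue) and the 5 controls (grey band from lowest to highest), with bars at group means. The genes shown were chosen for a higher mean in the high pools. In 8 panels the high pools lie above all low pools, and in the panels of hspa1b, hspa8b, sqstm1 and zgc:110286 FFA 3 lies above FFA 4.

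A further set of genes was high in FFA 1 and FFA 6 but near the low pools in FFA 4. Apart from sqstm1 these genes were chosen after their values were seen. si:ch211-199o1.2, which RefSeq names hspa1b, an inducible cytosolic HSP70, was 40.1, 10.4 and 90.9 CPM in FFA 1, FFA 4 and FFA 6, against 3.37, 11.03 and 3.75 CPM in FFA 2, FFA 3 and FFA 5. Controls had 3.65 to 4.84 CPM, so FFA 2 and FFA 5 were near the control level. The log2 difference was 3.00 ± 0.77. si:dkey-4p15.3, named hspa8b in RefSeq, had 49.5, 18.5 and 40.5 CPM in the high pools, against 10.1, 24.2 and 13.5 CPM in the low pools (1.22 ± 0.41). Both may share reads with other HSP70 genes, the 4 used for the split included.

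sqstm1, the autophagy receptor p62 and a target of the oxidative stress factor NRF2, was 461, 182 and 325 CPM in the high pools, against 145, 254 and 154 CPM in the low pools. Its log2 difference was 0.83 ± 0.34, and controls had 79.1 to 108 CPM. All 6 FFA pools lay above the controls, and FFA 3 again came before FFA 4. zgc:110286 also had FFA 3 above FFA 4, with 19, 2.48 and 14.5 CPM in the high pools, against 1.49, 3.35 and 1.12 CPM in the low pools and 0.343 to 0.761 CPM in controls. sec22ba, a SNARE of transport between ER and Golgi, had 51.3, 32.5 and 50.4 CPM in the high pools, against 32.2, 23.0 and 28.2 CPM in the low pools. FFA 4 and FFA 2 were nearly equal for sec22ba, and for the other 4 genes of this set FFA 3 lay above FFA 4.

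Without FFA 4 the fit called 4 of the 40 HSP70 partners higher in FFA 1 and FFA 6 than in the low pools and 1 lower, where 0.229% of all genes were called higher and 2.54% lower. The 4 were dnajb1b (0.85, adjusted p = 0.0122), bag3 (0.81, adjusted p = 0.0217), hspbp1 (0.64, adjusted p = 0.0230) and hspa4a (0.46, adjusted p = 0.0284). hsp90aa1.2 rose by 0.96 (adjusted p = 0.00601) and hspb8 by 0.54 (adjusted p = 0.0202) on the log2 scale. si:ch211-199o1.2 rose by 3.49, si:dkey-4p15.3 by 1.55, zgc:110286 by 3.13 and sqstm1 by 1.13 in the same edgeR fit, with adjusted p from 0.0103 to 0.0470. These genes were grouped above for being near the low pools in FFA 4, and all but sqstm1 were picked on their values. A fit that leaves out FFA 4 is therefore no independent test of them. The same limit holds for dnajb1b, bag3, hspbp1, hspa4a, hsp90aa1.2 and hspb8. For each of these FFA 4 was the lowest high pool, and all but hspa4a had been named for small p in the same libraries. Among the fits with 1 FFA library left out, only the fit without FFA 4 gave calls. Also called was zfand2a, a proteasome-associated gene induced by arsenite in mammals. It was picked after its values were seen, and had 42.5 and 39.8 CPM in FFA 1 and FFA 6, against 31.0, 29.4 and 28.9 CPM in FFA 2, FFA 3 and FFA 5. FFA 4 had 28.2 CPM of zfand2a, below all low pools.

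The 343 genes called lower without FFA 4, 2.54% of all 13525, held 25 of 44 photoreceptor genes and 11 of 40 neuron genes. The cone opsin gene opn1mw1 fell by 0.94 (adjusted p = 0.0221). Outside both lists, syt9b, a synaptotagmin named for its lack of overlap between the sides, fell by 0.51 (adjusted p = 0.0315). Summed photoreceptor CPM was 3177, 7180 and 3107 in FFA 1, FFA 4 and FFA 6, against 6825, 5497 and 7829 in FFA 2, FFA 3 and FFA 5. Controls spread from 2303 to 11978, so all 6 FFA pools lay within the control range, and FFA 4 was on the level of the low pools. Summed neuron CPM was 4390, 7118 and 4530 in the high pools, against 5531, 5860 and 7010 in the low pools and 2765 to 8987 in controls. Photoreceptor and neuron RNA was thus low in FFA 1 and FFA 6, the 2 pools with the most chaperone RNA, and its part in the chaperone differences was not tested. A separate fit of the 6 FFA pools had the share of counts outside genes as a covariate, which does not measure photoreceptor or neuron RNA. There the log2 difference of hsp90aa1.2 was 0.67, of bag3 0.59, of dnajb1b 0.58 and of hspbp1 0.54. That of si:ch211-199o1.2 was 2.27, against 3.00 without the covariate.

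The smallest p among genes without overlap in the 6-pool fit belonged to a gene outside the chaperones. LOC557301, named cart3 in RefSeq, encodes a CART neuropeptide, a family known for restraining appetite. It was 7.25, 8.79 and 7.498 CPM in FFA 1, FFA 4 and FFA 6, against 3.76, 2.51 and 3.37 CPM in FFA 2, FFA 3 and FFA 5. Controls had 2.06 to 2.83 CPM. The log2 difference was 1.29 ± 0.18 and stayed between 1.14 and 1.43 when 1 FFA library was left out. FFA 4, intermediate for hsp70, had the highest level, so the order did not match that of hsp70 within the high side. Beside the DESeq2 call, the edgeR fit of all 17 libraries called it between the sides (adjusted p = 0.0173), the 1 gene that fit called (0.00735% of 13613). Further genes with small p also lay higher in all high pools. slc7a7 differed by 0.31 ± 0.07, tinagl1 by 0.42 ± 0.10 and cyp3c3 by 0.64 ± 0.16. LOC553228 differed by 0.76 ± 0.20, zgc:153968 by 0.55 ± 0.14 and si:dkey-205h13.1 by 0.58 ± 0.15. Lower in all high pools were kcnh1a (−0.92 ± 0.23), zgc:171490 (−0.64 ± 0.17), bbs7 (−0.36 ± 0.10) and miox (−0.27 ± 0.08). With all 6 FFA pools edgeR called none of these further genes.

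Of 41 genes of ER stress and ATF4 targets, 8 lay higher in all 3 high pools (4.09% of all genes did) and 2 lower (2.56% of all genes). None was called between the sides by edgeR. hyou1, the ER member of the HSP110 family, was 243, 225 and 248 CPM in the high pools, against 209, 199 and 203 CPM in the low pools (0.25 ± 0.08). Controls had 206 to 244 CPM, which overlaps both sides. The ER gene called higher without FFA 4 was hyou1 (0.31, adjusted p = 0.0473, edgeR). hspa5, the ER HSP70 BiP, was 587, 576 and 643 CPM in the high pools, against 547, 501 and 550 CPM in the low pools (0.19 ± 0.09). The disulphide isomerase pdia4 and the ER stress factor manf differed by 0.29 ± 0.11 and 0.26 ± 0.09, also without overlap. The list median, 0.03, was close to that of all genes.

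Of 36 genes of oxidative stress, 7 were higher in all high pools (4.09% of all genes) and 0 lower (2.56%), with a median of 0.11. gclc, for glutathione synthesis, was 84.6, 88.1 and 83.6 CPM in the high pools, against 75.1, 78.0 and 76.7 CPM in the low pools (0.17 ± 0.06). The gclc range of the controls, 72.7 to 91.0 CPM, held all pools of both sides. hmox1a, heme oxygenase, was 41.3, 63.9 and 43.1 CPM in the high pools, against 41.3, 44.0 and 43.1 CPM in the low pools. FFA 4 stood above the other FFA pools for hmox1a, but within the 32.7 to 85.1 CPM of the controls. The metallothionein mt2 was 114 CPM in FFA 1 and 55.1 to 61.6 CPM in the other 5 pools.

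Of the 42 proteasome genes, 1 was higher in all high pools and 0 lower, and of 18 genes of the chaperonin list likewise 1 and 0, which is near the 4.09% and 2.56% of all genes. Still, 38 of the 42 and 16 of the 18 had a positive log2 difference, as had 6826 of all 13470 genes. Their list medians, 0.058 and 0.057, were near the 0.064 of the HSP90 list, so a small shift was not particular to HSP70 and HSP90 genes. The mitochondrial chaperonins hspd1 and hspe1 differed by 0.17 ± 0.12 and 0.15 ± 0.10, and both overlapped. The constitutive hspa8 had 4531, 3942 and 4605 CPM in the high pools, against 4267, 4353 and 3870 CPM in the low pools (0.08 ± 0.11). hsf1 itself was 65.1, 69.2 and 59.9 CPM in the high pools, against 57.3, 62.9 and 65.6 CPM in the low pools (0.08 ± 0.08), and serpinh1b, the collagen chaperone, differed by −0.09 ± 0.09. For none of these did the sides separate.

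**Figure D3:**
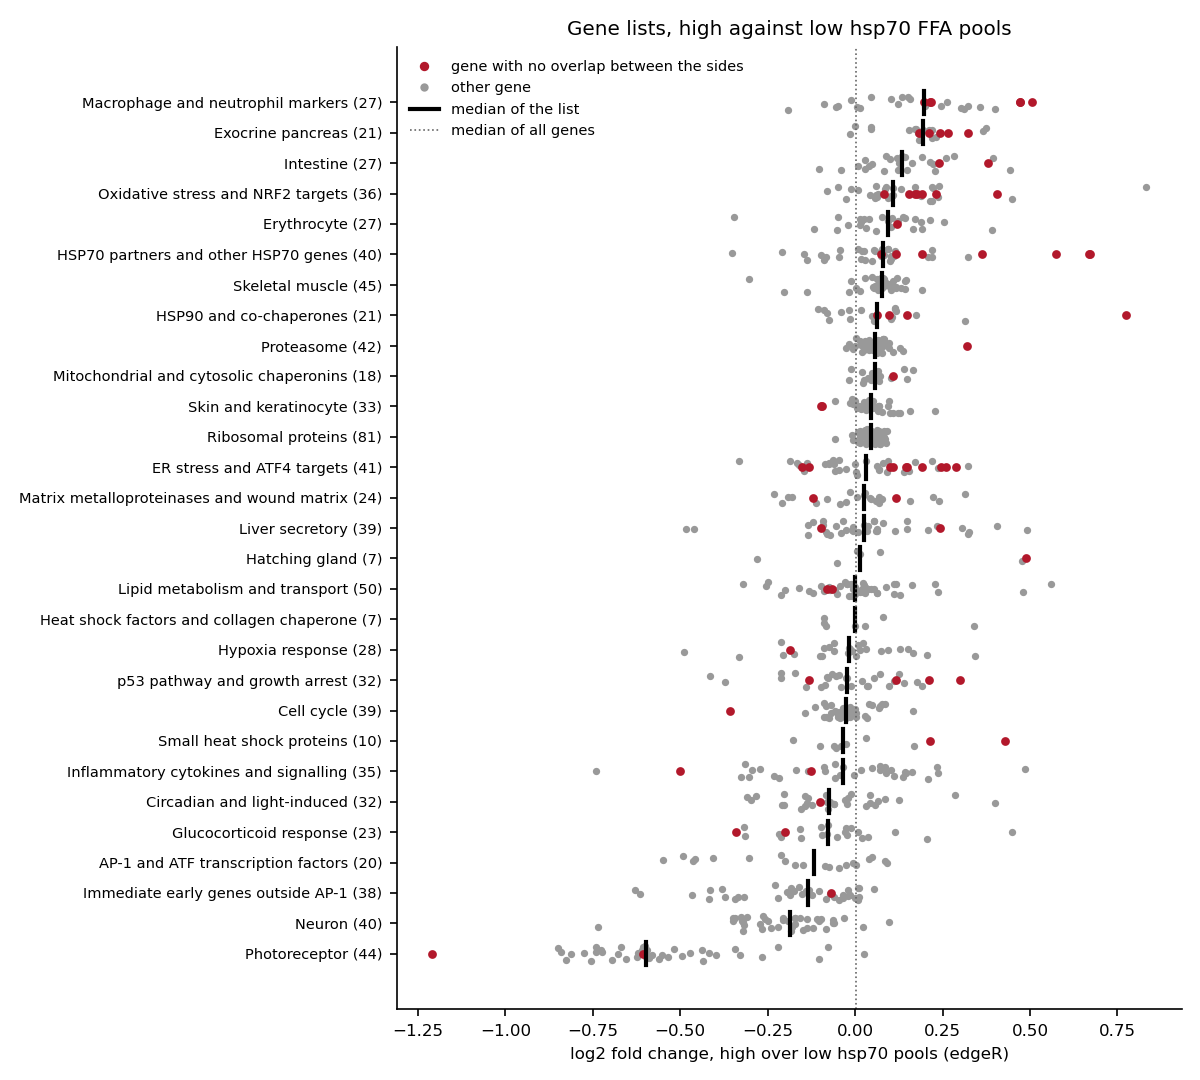
Log2 difference (edgeR), high over low hsp70 pools, of the tested members of 29 gene lists, with the number tested in brackets. Red points are genes whose sides do not overlap, black bars list medians (highest 0.20, macrophage and neutrophil markers, and lowest −0.60, photoreceptor) and the dotted line the median of all genes.

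The genes of the immediate early and wound response named here overlapped between the sides. fosl1a, the AP-1 subunit FRA-1, was 16.8, 88.9 and 24.0 CPM in FFA 1, FFA 4 and FFA 6, against 92.6, 56.9 and 31.4 CPM in FFA 2, FFA 3 and FFA 5. All were above the 2.95 to 4.78 CPM of the controls, with the lowest levels in the 2 pools highest in hsp70. The log2 difference between the sides was −0.49 ± 0.59, and it reached −1.86 (adjusted p = 0.0105) where FFA 4 and FFA 5, the pools on either side of the split, were both left out.

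fosab, for c-Fos, was 63.9, 222 and 164 CPM in the high pools, against 215, 201 and 207 CPM in the low pools. FFA 1 stood at the control level of 38.2 to 90.7 CPM. junbb was 53.7, 164 and 119 CPM in the high pools, against 139, 143 and 166 CPM in the low pools, and here too FFA 1 was lowest and within the 36.8 to 57.0 CPM of the controls. atf3 had 50.5, 83.3 and 49.3 CPM in the high pools, against 60.0, 61.5 and 62.4 CPM in the low pools, with FFA 4 highest.

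The cytokine gene il1b was 1.45, 4.58 and 2.47 CPM in the high pools, against 3.11, 2.05 and 2.55 CPM in the low pools. The matrix protease gene mmp9 was 29.1, 52.7 and 31.8 CPM in the high pools, against 47.6, 34.1 and 48.8 CPM in the low pools. For both, FFA 4 was highest and FFA 1 lowest. The hatching enzyme gene he1.1 was 11.9, 18.5 and 3.35 CPM in the high pools, against 14.1, 10.4 and 9.14 CPM in the low pools. igfbp1a, a binder of insulin-like growth factor, was 63.5, 160 and 69.5 CPM in the high pools, against 133, 113 and 85.1 CPM in the low pools. Of 20 AP-1 and ATF genes 0 separated the sides in either direction, and of 38 other immediate early genes 0 were higher and 1 lower in all high pools, where 4.09% and 2.56% of all genes were, so these counts are near the background. Direction was less even: 5 of the 20 and 5 of the 38 had a positive log2 difference, as had 6826 of all 13470 genes. The list medians were −0.12 and −0.14, larger in size than the 0.08 of the HSP70 list.

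**Figure D4:**
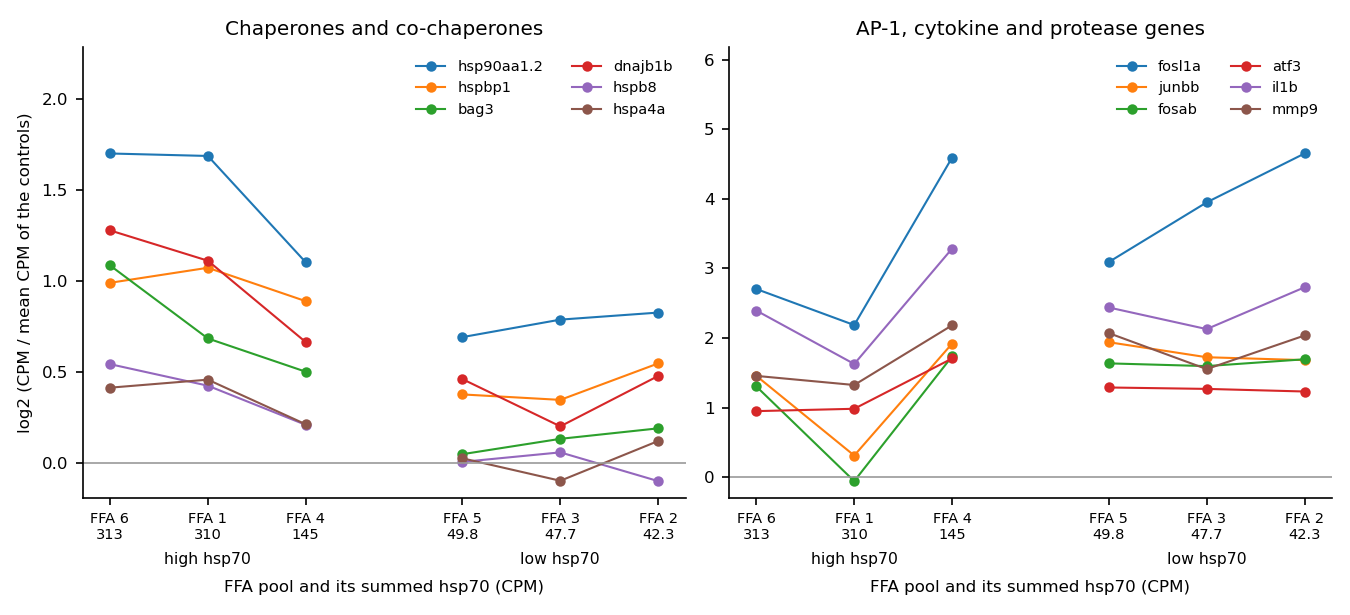
Log2 of CPM over the control mean in the 6 FFA pools, ordered by summed hsp70 (CPM under each name), for 6 chaperone genes at left and 6 AP-1, cytokine and protease genes at right. The chaperone genes shown are all without overlap between the sides, so their higher level in the high pools is set by that choice. Chaperone genes that overlapped, such as hspa8, hsp90aa1.1 and dnajb1a, are not shown. Each gene at right is higher in FFA 4 than in FFA 1 and FFA 6.

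Against the 5 controls, the high side had 56 genes higher (0.411% of 13613) and 22 lower (0.162%), and the low side 74 higher (0.544%) and 51 lower (0.375%), in 1 edgeR fit of all 17 libraries. In either direction that was 0.573% on the high side and 0.918% on the low side. The same controls serve both comparisons. Of 41 HSP70 partners 7 rose on the high side and 0 on the low side, and without FFA 4 the high-side count was 5, with 49 genes higher in all. hspbp1 differed from controls by 1.00 on the high side (adjusted p = 0.000125) and by 0.42 on the low side (adjusted p = 0.0711). dnajb1b differed by 1.06 (adjusted p = 0.000477) and by 0.38 (adjusted p = 0.287), and bag3 by 0.80 (adjusted p = 0.00224) and by 0.12 (adjusted p = 1). The other 4 were hspa4a (0.38), dnajb2 (0.58), dnaja1 (0.42) and dnajb1a (0.28), with adjusted p from 0.0209 to 0.0361, and each lost its call without at least 1 of the 3 high pools (largest adjusted p 0.198). hsp90aa1.2 rose by 1.55 on the high side (adjusted p = 0.000744), and its low-side value was 0.78 (adjusted p = 0.0854).

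The difference between the sides is the comparison above, in which edgeR called none of these genes with FFA 4 included and DESeq2 called hsp90aa1.2, so a call on 1 side alone does not show that the sides differ. The high side also had si:ch211-199o1.2 higher by 3.55 (adjusted p = 0.00121), zgc:110286 by 4.502 (adjusted p = 0.000477), sqstm1 by 1.81 (adjusted p = 0.00104) and LOC557301 by 1.73 (adjusted p = 3.29e-05). hspb9 fell by 0.88 on the high side (adjusted p = 0.0495), a call lost without any 1 of the high pools. In a fit of the high and control libraries alone, edgeR called 24 genes, and 2 HSP70 partners, hspbp1 and dnajb1b. The partners bag3, dnajb2, hspa4a, dnaja1 and dnajb1a lost their calls there, with adjusted p from 0.0769 to 0.281 in edgeR. They were among 19 named genes that lost the high-side call in that fit, for example si:ch211-199o1.2 (adjusted p = 0.0586) and he1.1 (adjusted p = 0.0730).

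Single genes of other groups were called on both sides. fosl1a rose by 3.54 on the high side (adjusted p = 0.00264) and by 4.03 on the low side (adjusted p = 0.00107), and atf3 by 1.26 on each. mmp9 rose by 1.71 on the high side and by 1.90 on the low side, he1.1 by 3.98 and 3.97, and pfkfb3, a regulator of glycolysis, by 0.77 and 0.76. Of 20 AP-1 and ATF genes, 3 rose on the high side and 7 on the low side, and of 38 other immediate early genes 2 and 13. Of all genes, 0.411% rose on the high side and 0.544% on the low side. Of 22 exocrine pancreas genes 2 fell on the high side and 7 on the low side, where 0.162% and 0.375% of all genes fell. With all 6 FFA pools edgeR called no gene of these lists between the sides, so the counts do not show a difference between them. plin2, which coats lipid droplets and was picked after its values were seen, was 19.1, 13.15 and 31.0 CPM in the high pools, against 15.8, 13.9 and 16.03 CPM in the low pools and 6.26 to 10.0 CPM in controls. It differed from controls by 1.22 on the high side (adjusted p = 0.00722) and by 0.74 on the low side (adjusted p = 0.156), and the edgeR fit of the high and control libraries alone did not call it (adjusted p = 0.193). FFA 4, on the high side, had the lowest plin2 level of the 6.

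Libraries that took no part in the split gave no second set of followers. Across the 11 control and glucose pools, with a mean per group, the slope on log2 summed hsp70 passed for 0 of 13426 genes in edgeR (853 at an unadjusted p under 0.05, or 6.35%), and for 5 in DESeq2. Their hsp70 sum spanned 4.03 to 6.65 CPM in controls and 6.66 to 13.08 CPM in glucose pools, wholly below the FFA pools. With a mean per group only the spread within each group sets the slope, and neither range spans a doubling. The slopes therefore say little about the levels reached in the FFA pools. Per doubling of hsp70 the slope was 0.40 ± 0.23 (SE, log2) for hsp90aa1.2, 0.35 ± 0.16 for si:ch211-199o1.2 and 0.35 ± 0.12 for si:dkey-4p15.3. It was 0.03 ± 0.14 for hspbp1, −0.09 ± 0.11 for bag3, −0.05 ± 0.11 for dnajb1b and −0.28 ± 0.20 for LOC557301. Over the 6 FFA pools the same slope was 0.34 for hsp90aa1.2, 0.23 for hspbp1, 0.29 for bag3 and 0.30 for dnajb1b, and again 0 of 13098 genes passed (1208 at an unadjusted p under 0.05, or 9.22%).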

How the data were processed

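The deposited values are raw read counts, whole numbers per gene and library, for 15316 genes, with 2 rows that name no gene. In the FFA libraries the row of counts outside genes took 31.1 to 35.8% of all counts. The row of ambiguous counts took 0.231 to 0.252%. Both rows stayed out of library sizes. Per the labels' protocols, stranded libraries of messenger RNA were pooled and sequenced as paired reads of 75 bp. STAR, DESeq2 and the build danRer7 appear in the submitters' processing notes without versions. The sources used here do not name the counting tool, the annotation or the handling of reads that match more than 1 gene. Libraries were grouped by title.

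Counts were tested with edgeR 4.0.16 in R 4.3.3 (filterByExpr, minimum count 10, TMM, quasi-likelihood F-test, Benjamini-Hochberg adjustment, call at an adjusted p under 0.05). The high and low sides were compared in the 6 FFA libraries alone (4 residual degrees of freedom). Comparisons with controls used 1 fit of 17 libraries with 4 means (13 degrees of freedom), and the slope in control and glucose pools had 8. CPM were computed here from gene totals. Differences are log2 and SE comes from the F statistic. Limma 3.58.1 and DESeq2 1.42.0 gave alternatives, beside other scalings, filters, covariates and left-out libraries. The code was tested on simulated counts.

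The members and the 29 gene lists were chosen with earlier results of these data known. Named genes were the 12 with no overlap and smallest p in each direction (mean of at least 1 CPM), the 3 with the smallest p in each list, a fixed panel of stress genes, and 10 in the order of hsp70 in each direction. A set of 88 genes was followed across settings, of which 10 lie outside the rule and were chosen after their values were seen. The text names only part of the 88. Symbols were matched to RefSeq. Pairs of FFA libraries differed by more than sampling noise (chi-square over its degrees of freedom 4.57 to 20.2), and none was treated as a duplicate.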

Additional observations from a re-analysis of the deposited data

Results flagged for a closer look

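Of 185 group values examined for a single far library, 12 stood apart from their group, and chance alone marks about 1 group in 20. Among the FFA pools, fosab was 63.9 CPM in FFA 1 with the nearest other pool at 164 CPM, and mt2 was 114 CPM and ctsl.1 42.4 CPM in FFA 1, each the highest of the 6. hmox1a was 63.9 CPM in FFA 4, the highest of the 6, though controls had 32.7 to 85.1 CPM. nfkbiaa, an inhibitor of NF-kappaB, was 103 CPM in FFA 5 with the nearest pool at 76.4 CPM. FFA 6 stood apart in 4 genes: plin2 at 31.0 CPM and gpx1b at 21.3 CPM were high, and hsf2 at 47.9 CPM and he1.2 at 1.32 CPM were low. Among the controls, junbb was 57.0 CPM in control 2, ctss2.1 10.5 CPM in control 4 and plin2 6.26 CPM in control 3.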

How the results depend on the processing

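Between high and low pools, where edgeR called 0 genes, DESeq2 called 2, the fit of 17 libraries 1, and the 6 libraries without FFA 4 and FFA 5 gave 397. Leaving out 1 library gave 0 to 374 (374 without FFA 4). For the high side against controls (78 called), library size alone gave 121, DESeq2 203, the covariate for counts outside genes 330, the 2 groups alone 24, and leaving out 1 library 59 to 119 (119 without control 4). For the low side against controls (125 called), DESeq2 gave 238, the covariate 371, the 2 groups alone 79, and leaving out 1 library 42 to 128 (42 without FFA 2, 59 without FFA 3, 67 without control 6, 82 without control 2). For the slope in control and glucose pools DESeq2 called 5. With the replicate number as a block the counts were 0 between the sides, 28 and 2 against controls, and 0 for the slope. Whether the numbers pair the libraries is not known. The correlation of deviations ran from −0.741 to 0.491 over 16 same-numbered pairs and passed 0.1 in 4. That check cannot exclude a shared clutch or batch, since libraries of the same group also differed from each other.

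Of 958 gene values between the sides under other settings 915 kept direction and call, 21 gained a call and 22 turned sign. atf3 was −0.00503 with library size alone, −0.000559 with a mean of at least 5 CPM, −0.031 in limma-voom, −0.059 as a slope, −0.25 without FFA 4 and FFA 5, and −0.055 in the block. he1.1 was −0.21 in limma-voom, −0.0089 with the covariate, −0.12 as a slope, −0.62 without FFA 4 and FFA 5, and −0.53 in the block. ahsa1a was 0.060 as a slope, 0.14 without both pools and 0.15 in the block. il1b was −0.061 as a slope and −0.41 without both pools, where mmp13a was −0.038 and cdkn1a −0.0095. pfkfb3 was −0.0062 with library size alone. In the block hsf1 was −0.0052, mdm2 0.14 and anpepb −0.065. With 1 library left out the values ran from −0.52 to 0.27 for ahsa1a, −0.57 to 0.11 for junba, −0.49 to 0.42 for he1.1, −0.69 to 0.050 for igfbp1a, −0.20 to 0.027 for hsp90aa1.1, −0.32 to 0.12 for hspb9 and −0.26 to 0.11 for atf3. They ran from −0.078 to 0.15 for pfkfb3, −0.14 to 0.092 for mdm2, −0.39 to 0.46 for il1b, −0.041 to 0.31 for mmp13a, −0.075 to 0.33 for hspb1 and −0.61 to 0.18 for he1.2. The causes were not tested. On totals scaled by TMM, added after seeing the data, 514 genes lay above and 361 below without overlap.

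Single members of close gene copies are uncertain.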

Other observations

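Macrophage and neutrophil markers had the highest list median between the sides, 0.20 over 27 tested genes, of which 6 were higher in all high pools (4.09% of all genes were) and 0 lower. cybb, a subunit of the phagocyte oxidase, was 9.14, 9.62 and 7.41 CPM in FFA 1, FFA 4 and FFA 6, against 6.94, 6.16 and 5.92 CPM in FFA 2, FFA 3 and FFA 5 (log2 difference 0.47 ± 0.14). ctss2.1, a cathepsin, was 14.6, 20.3 and 14.8 CPM in the high pools, against 13.5, 10.3 and 12.3 CPM in the low pools (0.47 ± 0.15), and controls had 5.92 to 10.5 CPM. The summed level of the list was 653 to 673 CPM in the high pools, against 571 to 650 CPM in the low pools and 481 to 601 CPM in controls. With all 6 FFA pools edgeR called none of these genes between the sides.

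Of 21 tested exocrine pancreas genes, 20 had a higher mean in the high pools, as had 6826 of all 13470 genes. All high pools lay above all low pools in 5 of the 21 (4.09% of all genes), the list median was 0.19, and edgeR called none between the sides. The amylase gene amy2a was 63.2, 59.12 and 73.6 CPM in the high pools, against 51.1, 50.1 and 57.2 CPM in the low pools and 77.5 to 114 CPM in controls. The elastase gene ela2 was 262, 254 and 299 CPM in the high pools, against 227, 217 and 243 CPM in the low pools and 361 to 462 CPM in controls. The glucose transporter gene slc5a1 was 50.4, 52.2 and 61.7 CPM in the high pools, against 36.8, 45.6 and 45.4 CPM in the low pools and 41.0 to 61.5 CPM in controls. amy2a was called between the sides (0.47, adjusted p = 0.0424, edgeR) where FFA 4 and FFA 5 were both left out, and in no other setting.

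In control and glucose pools, 43 of 43 photoreceptor genes had a positive slope on hsp70 (median 1.32 per doubling), as had 40 of 40 neuron genes (median 0.48) and 6528 of all 13373 genes, and no slope passed in edgeR. Other lists were as one-sided the other way, with 0 of 81 ribosomal protein genes and 0 of 33 skin genes positive. Members of a list were measured in the same 11 pools, so these counts are not independent observations. In the FFA pools the median photoreceptor slope was −0.35. In the 6 FFA pools 1 of 44 had a higher mean on the high side.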
